A study of Canis lupus familiaris with 8 samples.

Results

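The genes described here were those whose array probe stood well above background on every array of the doxorubicin-sensitive canine mammary carcinoma line CMT-Stylo and on no array of its resistant subline CMT-Star. Only 4 genes met that rule, out of 1458 genes that could be named, each through 1 probe: CYBB, DCN, DMD and PLA2G1B. The array holds 43603 gene probes, of which 2353 (5.40%) could be tied to a gene symbol, so most probes on it lie outside the description. The members were selected on measured values, namely the scanner software's own flag that a spot is well above background. Stylo and Star signals of the member probes are therefore given as a description, with no test. A further 6 named genes were left out by the rule, and 2 of them showed the same pattern with 3 probes.

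The study compared 4 groups of 2 arrays each, all from cultured dog cells. Stylo parent was unsorted, untreated CMT-Stylo, and Star parent was unsorted CMT-Star, which had been derived from CMT-Stylo over months of rising doxorubicin until it resisted 100 nM and is labelled doxorubicin treated. Stylo CSC and Star CSC were the cells that a flow sort took from each line as CD44+, CD24-/low and ALDH+, which the labels call cancer stem cells. All groups shared the same growth medium and RNA extraction. The labels number the replicates without saying whether they were separate cultures, so p-values measure the spread between arrays, which may be technical.

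The 4 genes belong to unrelated systems. CYBB encodes gp91phox (NOX2), the catalytic subunit of the phagocyte NADPH oxidase, which moves electrons across a membrane to make superoxide and is best known from neutrophils and macrophages. DCN encodes decorin, a small leucine-rich proteoglycan that fibroblasts secrete, that binds collagen fibrils and that sequesters growth factors such as TGF-beta. DMD encodes dystrophin, the large cytoskeletal protein that links actin to the membrane-spanning dystroglycan complex in muscle, with shorter products made from internal promoters in other tissues. PLA2G1B encodes the secreted phospholipase A2 of pancreatic juice, which releases fatty acids from phospholipids.

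The label of the set held only in part. For 3 of the 4 genes (DCN, DMD and PLA2G1B) another probe named for the same gene was well above background on Star arrays, and CYBB had no second probe. A weaker flag of the scanner software, which asks only that a spot be positive and significantly above its background, was set on 4 of 4 Star arrays for CYBB, on 4 of 4 for PLA2G1B, on 3 of 4 for DMD and on 2 of 4 for DCN. The set is therefore named below by its rule, as probes well above background on Stylo arrays alone. A spot that is not well above background gives only a bound on the level there.

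CYBB had a processed signal, the scanner's background-subtracted intensity, of 39.0 and 38.0 on the Stylo parent arrays and of 17.2 and 23.2 on the Stylo CSC arrays. On the Star arrays it read 12.4 and 10.0 in parent cells and 14.0 and 9.88 in sorted cells. The Stylo parent arrays were the highest and the groups of the 2 lines did not overlap, yet the lowest Stylo array was only 1.22 times the highest Star array, the narrowest gap of the 4 genes. On Star parent replicate 1 and Star CSC replicate 1 its signal even exceeded the lowest signal called well above background there (10.7 and 10.6), although its own spot was not so called. Before background subtraction the order changed: the raw median signal was 77.5 and 76 in Stylo parent, 63 and 62 in Stylo CSC, 70 and 66 in Star parent and 69 and 72 in Star CSC, so that the raw Stylo CSC spots lay below all 4 Star spots.

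DCN read 24.1 and 24.5 in Stylo parent and 263 and 231 in Stylo CSC. On the Star arrays it read 4.30 and 2.91 in parent cells and 6.54 and 3.04 in sorted cells. The sorted Stylo cells were far above every other array, and the lowest Stylo array was 3.68 times the highest Star array, the widest gap of the 4 genes. Raw signals kept the sorted Stylo arrays apart, at 262 and 238, while Stylo parent at 68 and 66 and Star arrays at 63 to 66 met at 66.

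DMD, through its member probe A_11_P114356, read 49.5 and 28.1 in Stylo parent and 26.8 and 22.2 in Stylo CSC. The Star arrays gave 5.65 and 2.15 in parent cells and 4.83 and 7.37 in sorted cells. Stylo arrays lay above Star arrays without overlap, by 3.01 times at the closest, and 1 Stylo parent array stood above the other 3 Stylo arrays. The raw signal was 105 and 77 in Stylo parent and 75 and 75 in Stylo CSC, against 71 and 65 in Star parent and 69 and 74 in Star CSC, so the raw ranges lay next to each other.

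PLA2G1B, through probe A_11_P195633, read 23.6 and 19.3 in Stylo parent and 61.2 and 68.5 in Stylo CSC. On Star arrays it read 7.85 and 7.86 in parent cells and 11.54 and 9.81 in sorted cells. Both sorted Stylo arrays were highest, and the lines did not overlap, with 1.68 times between the closest arrays. Raw signals did overlap: Stylo parent at 72 and 67 lay within or below the Star arrays at 70 to 76, and only Stylo CSC, at 112 and 125, was above them.

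**Figure D1:**
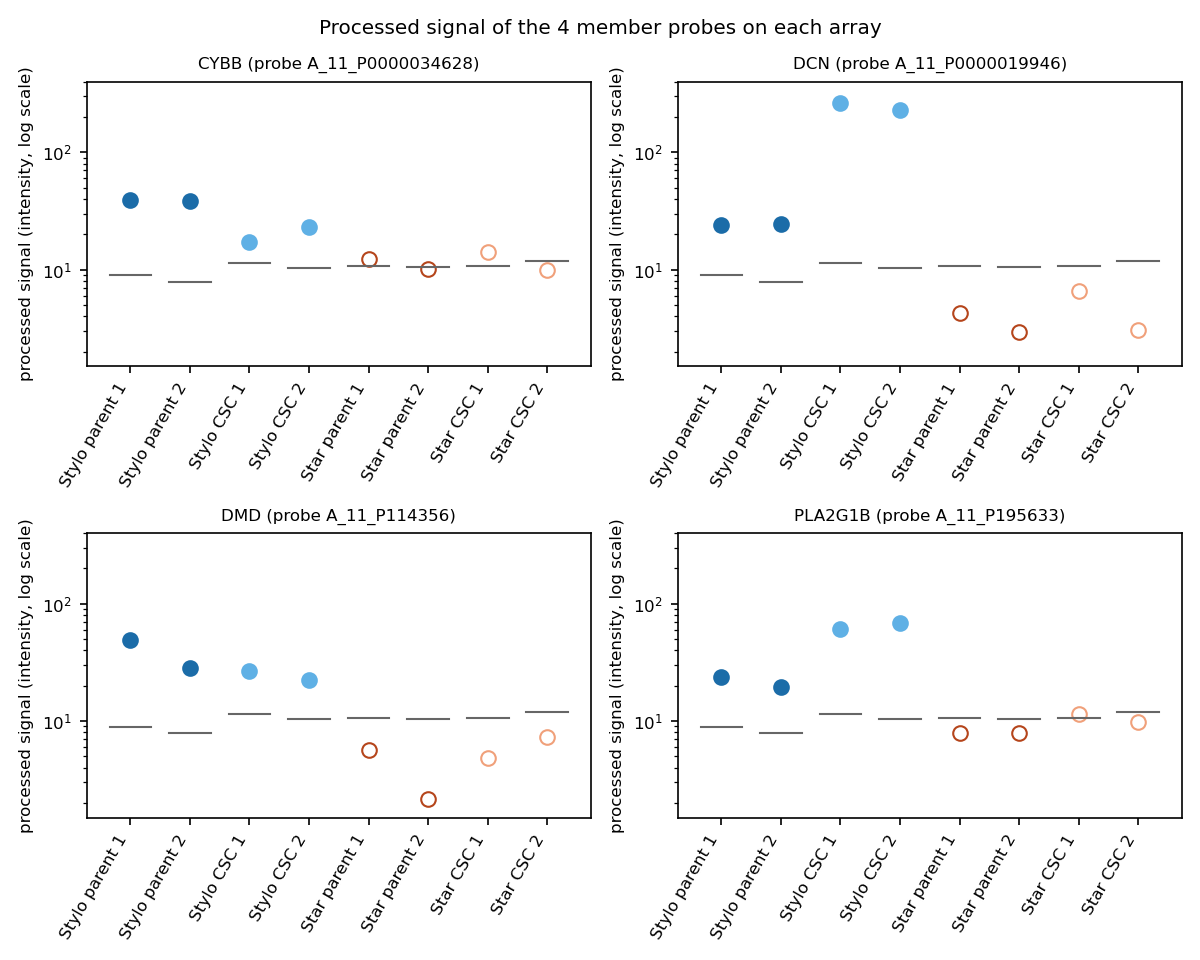
Processed signal (intensity, log axis) of the 4 member probes on each of the 8 arrays. Points are arrays, filled where the spot was well above background and open where it was not, and grey bars mark the lowest signal called well above background on that array (7.91 to 11.9). DCN has the widest gap between lines (3.68 times at the closest) and CYBB the narrowest (1.22 times).

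The background itself differed between the lines. The 153 negative-control spots had a median raw signal of 43.5 to 45 on the Stylo arrays and of 59 to 61 on the Star arrays. All Stylo arrays were on one slide and all Star arrays on the other, so line and slide cannot be told apart, and the part of the higher negative controls in the pattern was not tested. Over the negative-control median of its own array, the raw signal of CYBB was 18.5 to 32.5 higher on Stylo and 7 to 12 higher on Star arrays. The same excess was 21.5 to 218 against 4 to 7 for DCN, 31.0 to 60 against 6 to 14 for DMD, and 22.5 to 81.5 against 11 to 16 for PLA2G1B. On that measure the 2 lines did not overlap for any of the 4 probes, but a flag on the same spots had selected them. Over the local background of each spot the lines did overlap. CYBB read 69 over 27 on Star CSC replicate 1 and 63 over 32 on Stylo CSC replicate 1. DCN read 66 over 30 on Star CSC replicate 1 and 68 over 36 on Stylo parent replicate 1. DMD read 74 over 31 on Star CSC replicate 2 and 75 over 34 on Stylo CSC replicate 2. PLA2G1B read 76 over 29 on Star CSC replicate 2 and 72 over 38 on Stylo parent replicate 1.

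**Figure D2:**
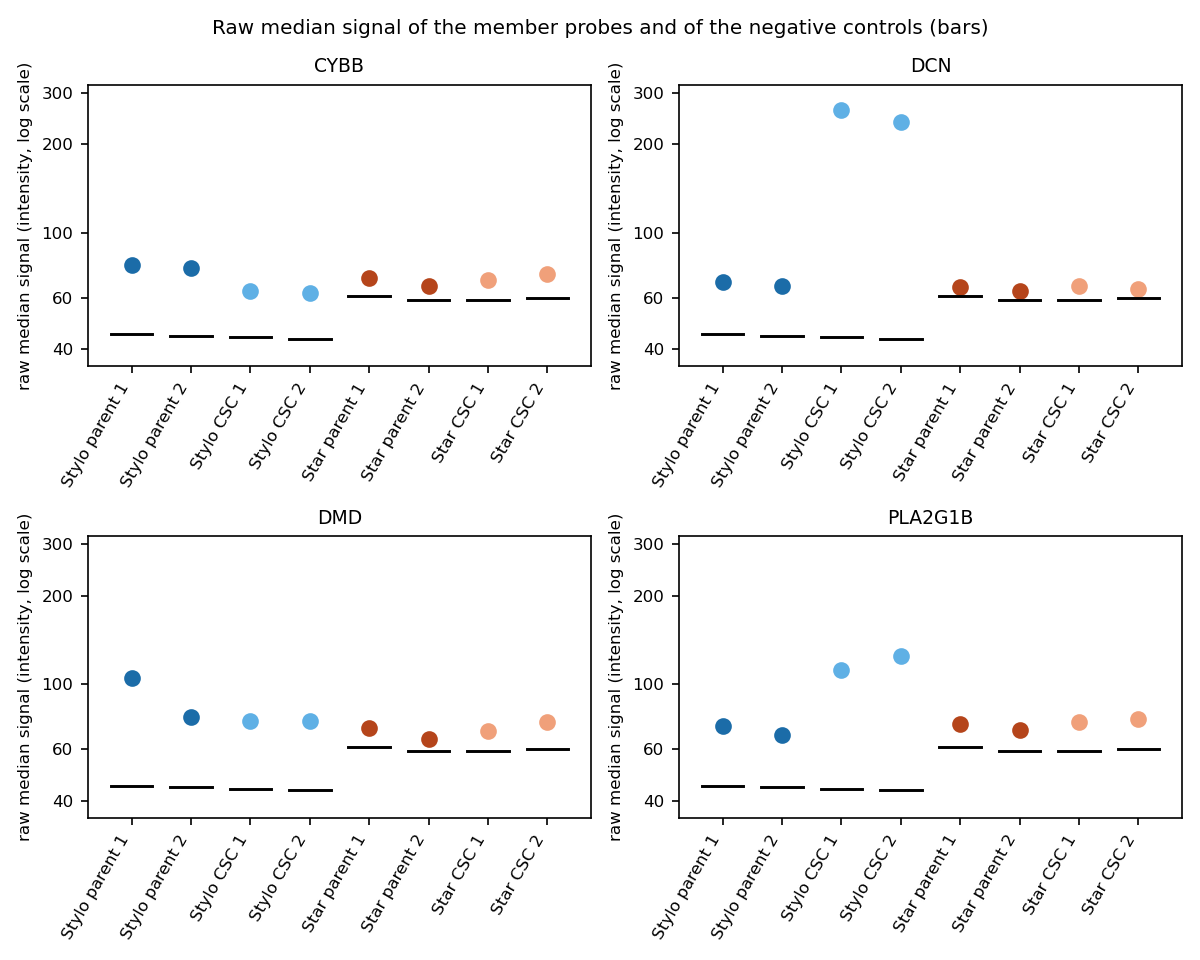
Raw median signal (intensity before background subtraction, log axis) of the 4 member probes on each array, with black bars for the median of the negative-control spots on the same array. Negative controls sit at 43.5 to 45 on Stylo and at 59 to 61 on Star arrays, and raw Stylo and Star signals overlap for CYBB and PLA2G1B and meet for DCN.

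An approximate lower bound on the Stylo level relative to Star was set after scaling each array by its 75th percentile. It takes the mean Stylo level against a Star level that is, on each array, the higher of the probe's own signal and the lowest signal called well above background. With this floor the bound in parent cells was 10.3-fold for DCN, 15.2-fold for CYBB, 15.8-fold for DMD and 9.06-fold for PLA2G1B. In sorted cells it was 36.1-fold for DCN, 9.10-fold for PLA2G1B, 3.57-fold for DMD and 2.55-fold for CYBB. The floor was set over all spots of an array and is no detection limit of these probes. Spots of CYBB and PLA2G1B not called well above background exceeded it on some Star arrays, so the bounds are not strict. With the 5th percentile of the signals called well above background as the floor, the parent bounds were 6.65-fold for DCN, 10.6-fold for CYBB, 10.2-fold for DMD and 5.86-fold for PLA2G1B, and those in sorted cells 22.1-fold, 1.79-fold, 2.19-fold and 5.81-fold. In bulk samples, fewer cells that make a transcript and less of it in each cell cannot be told apart.

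These bounds lean on the scaling, because the Stylo parent arrays were dim. Their 75th percentile was 69.2 to 88.3, against 296 to 309 (Stylo CSC), 331 to 371 (Star parent) and 464 to 536 (Star CSC), and the share of spots well above background was 46.7% to 47.4% on them and 55.5% to 60.7% on the other arrays. The log2 percentile subtracted from Stylo parent thus differed by -2.16 from that of Star parent. Scaled log2 negative controls, which carry no transcript, were -5.38 to -5.21 in Stylo parent and -7.16 to -7.01 in Star parent. In sorted cells they were -6.90 to -6.84 in Stylo and -7.71 to -7.29 in Star, and their part in the bounds was not tested. Without scaling the parent bounds were 2.30-fold for DCN, 3.38-fold for CYBB, 3.53-fold for DMD and 2.02-fold for PLA2G1B, and the bounds in sorted cells were 21.9-fold, 1.55-fold, 2.17-fold and 5.53-fold in the same order.

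Few probes showed such a pattern in either direction. Of all 43603 gene probes, named or not, 104 (0.239%) were well above background on all Stylo arrays and no Star array, and 928 (2.13%) showed the mirror pattern. Among named genes the mirror set held 42 genes through 47 probes. Of 1207 named probes well above background on all 4 Stylo arrays, 1174 (97.3%) were so on all 4 Star arrays too.

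Just outside the rule lay 14 named probes. For 9 of them a single Star array was well above background: KLRA1, TFF1, DRD2, SLCO2A1, LGALS12, MFN2, SSTR5, GATD1 and GJB2. The other 5 missed 1 Stylo array: CCR4, PKLR, ADAMTS13, OR2F1 and KLK1. Singled out after their values were seen, 2 of them show the spread of these near misses. SLCO2A1, a prostaglandin transporter, had Stylo signals of 45.9 to 68.6 and Star signals of 5.39 to 15.6, a gap of 2.93 times that was wider than that of CYBB or PLA2G1B. SSTR5, a somatostatin receptor, read 10.9 to 33.0 in Stylo and 3.33 to 31.0 in Star, where only Star CSC replicate 2 lay within the Stylo range. Star CSC replicate 1 alone was the detecting array for 6 of the 9, and without it the rule would have taken 10 genes.

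The other probes of the member genes showed how far each gene followed its member probe. There were 12 of them, 1 for DCN, 2 for PLA2G1B and 9 for DMD, of which 5 were well above background on all 8 arrays, 5 on no array and 2 on some. All probes of a gene carry the same RefSeq accession; their positions within the transcript were not analysed here.

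For DCN the second probe, A_11_P146158, read 186 and 146 in Stylo parent, 1969 and 2009 in Stylo CSC, 16.6 and 16.7 in Star parent and 27.4 and 24.0 in Star CSC. It was well above background on every array, and it ran the same way as the member probe, with every Stylo array above every Star array. Its scaled log2 level differed by -5.47 in Star parent against Stylo parent and by -7.00 in Star CSC against Stylo CSC (-3.31 and -6.28 without scaling). In Star parent its signal lay near the 5th percentile of the signals called well above background there (16.3 and 16.4). DCN was thus detected in the resistant line by 1 of its 2 probes, at a low signal.

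For PLA2G1B the second probe, A_11_P0000020031, ran against the member probe in signal, but not after scaling. It read 25.5 and 19.1 in Stylo parent, 37.4 and 37.0 in Stylo CSC, 63.4 and 62 in Star parent and 57.8 and 64.9 in Star CSC. Every Star array was above every Stylo array in signal. After scaling, the log2 difference of Star from Stylo was -0.66 in parent cells and 0.00 in sorted cells, against 1.51 and 0.72 without scaling. The third probe, A_11_P060136, was well above background on no array.

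For DMD the brightest probe, A_11_P053266, read 430 and 330 in Stylo parent, 3508 and 3084 in Stylo CSC, 2876 and 2342 in Star parent and 2850 and 2464 in Star CSC. Probe A_11_P050776 read 98.2 and 68.6, 1148 and 1121, 1250 and 1210, and 1430 and 1164 in the same order of groups. Probe A_11_P114341 read 38.9 and 28.5, 329 and 258, 257 and 200, and 246 and 190. In signal, the Stylo parent arrays were the low ones on these 3 probes, unlike the member probe, on which the Star arrays were low. After scaling, the mean log2 level of A_11_P053266 was 2.27 in Stylo parent, 3.44 in Stylo CSC, 2.89 in Star parent and 2.41 in Star CSC, and that of A_11_P114341 was -1.23, -0.06, -0.63 and -1.20. Scaled, Stylo CSC was thus highest on both, and Stylo parent and Star CSC lay close together. The scaled means of A_11_P050776 were 0.07, 1.91, 1.81 and 1.37 in the same order. Of the rest, A_11_P053816 was well above background on 3 Stylo and 4 Star arrays, A_11_P054861 on 2 Stylo and 3 Star arrays, and A_11_P0000020052, A_11_P114346, A_11_P114351 and A_11_P114361 on none.

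**Figure D3:**
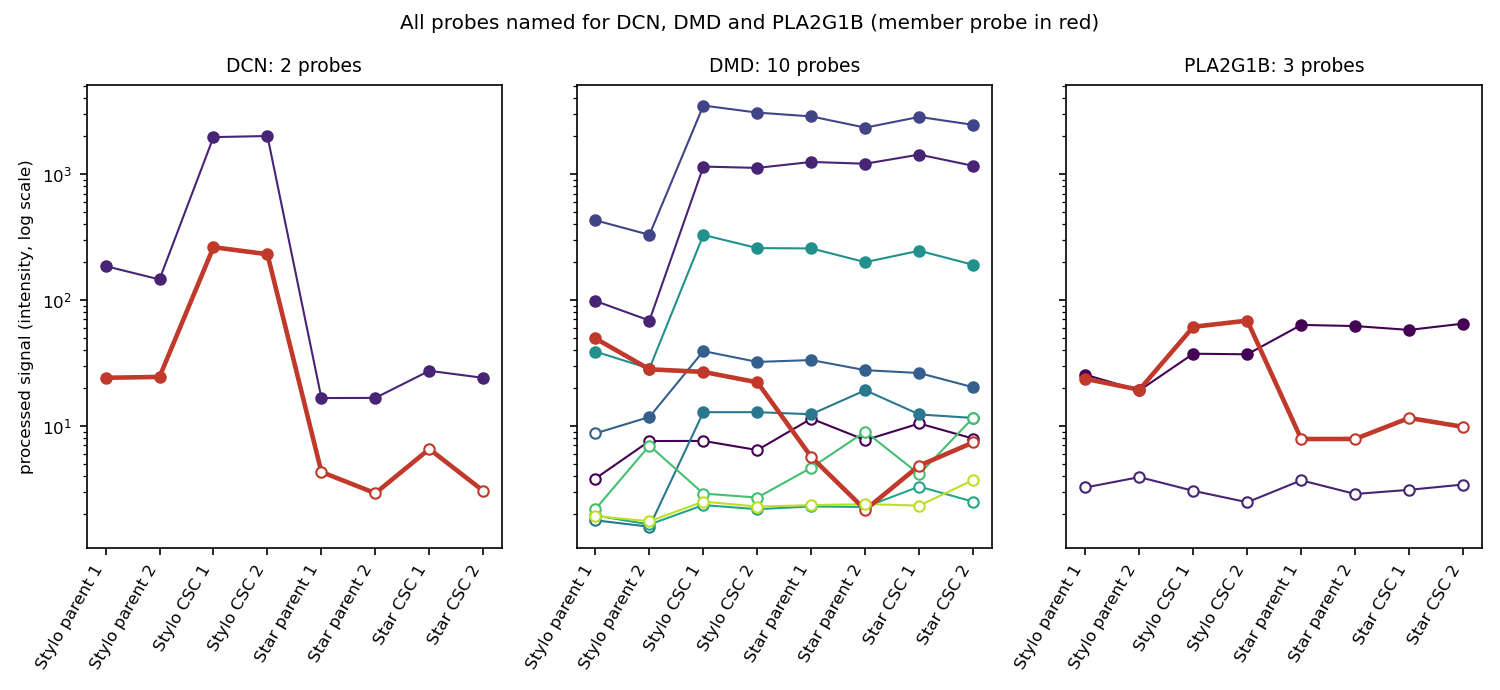
Processed signal (intensity, log axis) of every probe named for DCN (2 probes), DMD (10 probes) and PLA2G1B (3 probes) on the 8 arrays; each line is a probe, the member probe is red, and filled points were well above background. Only for DCN does the other detected probe fall from Stylo to Star as the member probe does. Lines join arrays of separate groups for tracing only.

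The rule did not use the difference made by the sort in the sensitive line, but it did use the flags of the same arrays. Of the 104 probes with the pattern, 77.9% were called lower in sorted cells, more than among all probes. The values of the 4 member probes are therefore given as a description, with no p-value. Where a member probe is said to be called or not, the cut-off used for all probes is applied, and it is no test of the member. The comparison asks, in the study's design, which transcripts differ between CMT-Stylo and the cancer stem cells taken from it, and both groups were on the same slide. Of the 4 members 1 was called higher in Stylo CSC, 2 were called lower and 1 was not called (limma on scaled log2 signals, adjusted p under 0.05 over all tested probes and at least 2-fold). Against this, 54.0% of the 26825 tested probes were called, 21.9% higher and 32.1% lower, and their median difference was -0.28. Among the 19108 probes well above background on all 4 Stylo arrays, as the members were, 19.8% were called higher and 34.2% lower. Calls were thus common for any probe, and 3 calls among 4 members show nothing particular to them.

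CYBB differed by -2.90 ± 0.21 on the log2 scale in Stylo CSC (limma estimate and SE, n = 2 arrays per group). It kept that direction under all 8 settings of scaling or background correction (75th percentile, median, percentile of detected probes, quantile, cyclic loess, spike-in, normexp and the deposited matrix), from -2.90 to -0.81, and was not called with spike-in scaling or without scaling. The deposited matrix repeats the 75th-percentile scaling but for centring per probe, so here and below it is no separate check. Unscaled signals differed by -0.95, and the rest was the gap of -1.95 between the 75th percentiles of parent and sorted arrays. Scaled negative-control signals, which carry no transcript, were also lower in Stylo CSC, at -6.90 to -6.84 against -5.38 to -5.21 in Stylo parent, and their part in the difference was not tested.

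The member probe of DMD differed by -2.57 ± 0.46, from -2.57 to -0.47 over the same 8 settings and by -0.61 unscaled, and was not called with spike-in scaling or without scaling. The 3 DMD probes detected on all arrays were called in the opposite direction. A_11_P050776 rose by 1.83 ± 0.11 (limma adjusted p = 2.8e-05), A_11_P053266 by 1.17 ± 0.10 and A_11_P114341 by 1.18 ± 0.14, and each stayed positive under all 8 settings (down to 0.22 for A_11_P114341 with normexp, which was not called). Probes of the same gene thus disagreed in direction within 1 comparison on 1 slide. The member probe was dim: its raw signal over the negative-control median was 60 and 32.5 in Stylo parent and 31 and 31.5 in Stylo CSC. As for CYBB, the part of the lower scaled negative controls of Stylo CSC in its difference was not tested.

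DCN differed by 1.39 ± 0.32 in Stylo CSC on its member probe, except that normexp background correction gave -0.14. Its second probe rose by 1.64 ± 0.10 (limma adjusted p = 3.4e-05) and lay between 1.58 and 3.73 under the 8 settings. Both DCN probes had the sorted arrays above the parent arrays in unscaled signal as well, with differences of 3.34 and 3.60.

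The member probe of PLA2G1B differed by -0.35 ± 0.12, below the fold minimum, and its sign turned with median scaling (0.080), cyclic loess (0.25) and spike-in scaling (1.74). Its second probe fell by 1.20 (-1.20 ± 0.14, limma adjusted p = 0.00050), except that it was 0.89 with spike-in scaling. No direction for PLA2G1B held across the scalings.

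**Figure D4:**
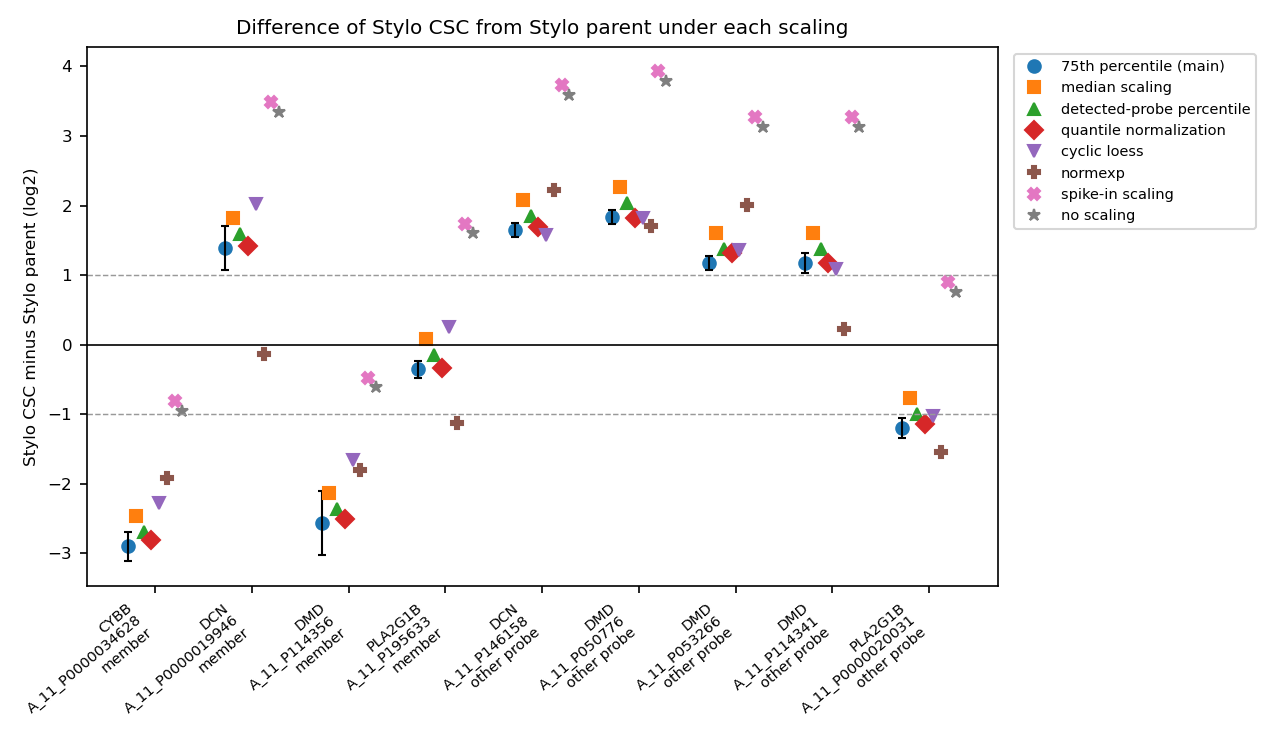
Log2 difference of Stylo CSC from Stylo parent for the 4 member probes and the 5 other probes of these genes detected on all arrays, under the 75th-percentile scaling (blue, bars are ± SE) and 7 other treatments of the signal. Dashed lines mark a 2-fold difference. The DCN member probe (but for normexp), the second DCN probe and the 3 other DMD probes are above 0, CYBB and the DMD member probe are below 0 throughout, and PLA2G1B crosses 0.

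The same sort in the resistant line could be read only on the other probes. In Star CSC against Star parent, 9.72% of 26823 tested probes were called (3.22% higher, 6.51% lower), and none of the 5 probes was. The limma differences were 0.12 ± 0.10 for DCN, -0.44 ± 0.11, -0.48 ± 0.10 and -0.57 ± 0.14 for DMD (A_11_P050776, A_11_P053266 and A_11_P114341) and -0.54 ± 0.14 for PLA2G1B. Spike-in scaling turned the sign of the DMD and PLA2G1B probes and called all 5 higher (1.102 to 1.792), as it did 22245 of all tested probes (median 1.57), and normexp turned that of DCN. The difference between the sort effects of the lines, tested in the same fit, was called for the DCN probe at 1.53 ± 0.14 and for the 3 DMD probes at 1.65 to 2.27, but not for PLA2G1B (-0.66 ± 0.20, limma adjusted p = 0.031, below the fold minimum). Such a call was made for 52.1% of all probes tested (24.0% higher, 28.2% lower), and each of the 4 kept its direction under the 8 settings.

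Partners of each member were read from short gene lists chosen after these values were seen, with each gene taken by its brightest tested probe. Their counts stand against the 21.9% of all tested probes called higher and the 32.1% called lower (19.3% and 37.9% of named genes), and nothing particular to a list is read from them. Of 4 tested NADPH oxidase genes, 3 were called lower in Stylo CSC and none higher: CYBB, CYBA, which encodes the p22phox partner subunit (-1.18), and DUOX1, a related oxidase of epithelia (-2.13). RAC1, the small GTPase that activates the complex, differed by -0.85 and was not called. The median of the list was -1.65, against -0.28 over all tested probes, and CYBA and RAC1 turned positive with spike-in scaling (0.92 and 1.25) and normexp (0.33 and 0.01). With spike-in scaling 1 was called higher and 0 lower (median 0.44), and with median scaling 2 were called lower.

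Both tested small leucine-rich proteoglycans rose in Stylo CSC, DCN and its close relative BGN, biglycan (3.06), and both stayed positive under all 8 settings. Of 3 tested genes of the dystrophin complex all 3 rose: DMD on its brightest probe, UTRN, the utrophin paralog (1.36, but -0.66 with normexp), and DAG1, the dystroglycan that dystrophin binds, which in Stylo was well above background on the sorted arrays alone and turned negative with normexp (-0.41), under which 1 of the 3 was called higher. CAV3 and NOS1 were well above background on no array. Of 3 pancreatic enzymes tested all 3 fell, PLA2G1B on its second probe with CELA1, an elastase (-2.65), and CLPS, the lipase cofactor colipase (-1.22), except that CLPS and PLA2G1B were positive with spike-in scaling (0.87 and 0.89) and that 0 were called with spike-in and 1 with median scaling, while CPB1 and PNLIPRP1 were well above background on no array. Among 4 phospholipase and arachidonate genes, PTGES, the inducible prostaglandin E synthase, rose by 4.45, PLA2G1B on its second probe and PLA2G7 (-1.23) fell, with PLA2G7 at 0.86 with spike-in scaling and 0.22 with normexp, and PTGS2 differed by 0.72 and was not called.

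Markers of the cell types in which these genes are best known were set beside them. Levels summed over a list are in units of each array's 75th percentile. Of 12 leukocyte markers on the array, none was well above background on both Stylo parent arrays, where CYBB was highest. Both Stylo CSC arrays detected 1, both Star parent arrays 3 and both Star CSC arrays 4. The summed level of the 12 markers was 0.494 to 0.576 in Stylo parent and 0.285 to 0.387 in Stylo CSC. It was 0.267 to 0.329 in Star parent and 1.18 to 1.25 in Star CSC. Scaled log2 negative controls were -5.38 to -5.21 in Stylo parent, -6.90 to -6.84 in Stylo CSC and -7.16 to -7.01 in Star parent. In Star CSC they were -7.71 to -7.29, and their part in these sums was not tested. CD40, CD79A and CD86 were well above background on all 4 Star arrays, TYROBP on 2 and CD8A on 1. In Stylo, CD40 and CD79A were so on 2 arrays each and CD28 on 1. CD4, CD80, CTLA4, IL2RA, IL2RG and MS4A1 were well above background on no array.

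All 7 fibroblast and mesenchymal markers on the array, DCN included, were well above background in every group. Their summed level was 667 to 742 in Stylo parent, 1317 to 1427 in Stylo CSC, 402 to 469 in Star parent and 303 to 328 in Star CSC, so it was highest where DCN was highest. In Stylo CSC 5 of the 7 rose and 1 fell, against 21.9% and 32.1% of all tested probes, with a median of 2.42; they include COL1A1 (2.42), COL1A2 (3.03) and FBN1 (3.05), matrix proteins of connective tissue, while PDGFRB differed by -1.09 and was positive with spike-in scaling (1.00). Their part in the DCN result was not tested.

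Of 11 muscle markers on the array, 3 were well above background on both arrays of Stylo parent, 3 in Stylo CSC, 5 in Star parent and 3 in Star CSC, DMD among them. Their summed level was 9.95 to 11.2, 11.85 to 12.7, 9.13 to 9.92 and 8.74 to 8.80 in the same order of groups. A large part of each sum was DMD itself, through its brightest probe A_11_P053266. The mean scaled log2 level of that probe was 2.27, 3.44, 2.89 and 2.41, so the sums are not independent of DMD. MYH2, PLN and TNNT2 were well above background on no array. For the carcinoma itself, KRT14, a basal keratin, was well above background on all 8 arrays. Of 5 luminal markers on the array, both Stylo parent arrays detected 1, both Stylo CSC arrays 2, both Star parent arrays 3 and both Star CSC arrays 4. PGR, the progesterone receptor, was well above background on all 8 arrays, MUC1 and KRT19 on Star arrays alone, and ESR1 on none. CDH1, on its brightest probe, was so on 4 Star and 2 Stylo arrays. Of 4 luminal markers tested in the Stylo sort, 2 were called lower and 1, CDH1, was called higher. CDH1 ran from -0.09 to 6.58 over the 8 settings. Of 22 tested genes of the extracellular matrix and proteases, the class that holds DCN, 5 rose and 11 fell in Stylo CSC, with a median of -0.88 (1.21 with spike-in scaling, 12 higher and 2 lower). Both sets of counts stand against 19.3% higher and 37.9% lower among 978 named genes tested.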

How the data were processed

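RNA of 8 samples (4 groups of 2) was hybridised to 1-colour Agilent arrays. The authors' scanner files, which per the file headers come from Agilent Feature Extraction 11.5.1.1, give processed and raw intensity for each spot and flags; the deposited series matrix gives log2 values, which match the log2 of the processed signal after subtraction of a 75th percentile per array and centring per probe (column medians -0.27 to 1.01). The centring is inferred from the values. RNA was column-extracted with DNase treatment, per the labels' protocols.

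Outlier and control spots were left out, log2 processed signal was averaged per probe and the array's 75th percentile subtracted. No spot was saturated. Probes that some group had well above background on both of its arrays were tested with limma 3.58.1 (R 4.3.3), 4 group means on all 8 arrays, two-sided, Benjamini-Hochberg over all tested probes, called at adjusted p under 0.05 and at least 2-fold; the procedure was tested on simulated data. Array number, 2 per group, limits the precision, and so does signal over background.

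Gene names were matched by accession to RefSeq (UU_Cfam_GSD_1.0, names only). Every member was named; values on each array were given for members with the largest bounds, calls or levels, or with another probe detected in Star, which took in all 4. Members and gene lists were chosen with earlier results of these data known, and the 5 partner lists and the comparisons of other probes after the values were seen. Alternatives covered scaling, background correction, the deposited matrix, filters, thresholds, the variance model, a replicate block and each array left out.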

Additional observations from a re-analysis of the deposited data

Results flagged for a closer look

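Of the 5 other probes detected on all 8 arrays, 4 had a sort effect that differed between the 2 lines. The difference was tested in the same limma fit (Stylo CSC minus Stylo parent, less Star CSC minus Star parent). The DCN probe A_11_P146158 had a difference of 1.53 on the log2 scale (adjusted p = 0.00027). The DMD probes had differences of 2.27 (A_11_P050776, adjusted p = 8.8e-05), 1.65 (A_11_P053266, adjusted p = 0.00019) and 1.75 (A_11_P114341, adjusted p = 0.00059). A_11_P114341 was called under 7 of the 8 settings, down to 0.64. DMD probe A_11_P054861, not detected on all arrays, was also called (1.86, limma adjusted p = 0.0051). On each of the 3 DMD probes the scaled level of sorted cells was above that of parent cells in Stylo and slightly below it in Star. In signal the dim Stylo parent arrays were the low ones on these 3 probes, and the part of that dimness was not tested. Of all tested probes 52.1% were called in this comparison.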

How the results depend on the processing

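The number of member genes was 4 when all or any spots of a probe had to be detected, and 9 with 3 of 4 Stylo arrays, 13 with at most 1 Star array, 26 on parent arrays only, 27 on CSC arrays only and 1 when no other probe of the gene could be on a Star array; leaving out an array gave 4 to 10, the latter without Star CSC replicate 1. In the Stylo sort, members called higher were 2 with spike-in scaling and 0 with normexp or a 4-fold minimum, and members called lower were 0 with spike-in scaling and 3 with normexp; unscaled, 2 were called higher and 0 lower. Over all probes, calls were 5431 (2118 higher, 3313 lower) at 4-fold and 28650 (22764 lower) without a filter, against 14484; higher and lower calls were 18429 and 354 with spike-in scaling, 8156 and 6095 with median scaling, 4049 and 11660 with normexp and 17308 and 509 unscaled, against 5879 and 8605, and 3783 were higher among probes detected on all 4 Stylo arrays. The median over all probes was 1.82, 0.16 and -0.76 under the first 3 of these in turn and 1.68 unscaled, against -0.28. Leaving out an array gave 3 to 3 members called (1 to 1 higher, 2 to 2 lower) and 13871 to 15050 probes (5637 to 5931 higher, 8234 to 9122 lower). The replicate block gave 3 members (1 higher, 2 lower) and 14459 probes, and changed no other call. Deviations of same-numbered arrays correlated at -0.07 to 0.07, so no shared deviation by number was seen. With 2 arrays per group this cannot tell whether same-numbered arrays shared a culture or sort.

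Signs turned as follows. The PLA2G1B member probe was 0.080 with median scaling, 0.25 with cyclic loess, 1.74 with spike-in scaling and 1.60 unscaled; its second probe was 0.89 with spike-in scaling and 0.75 unscaled, its Star sort effect 1.13 with spike-in scaling and its difference between lines 0.79 unscaled. Normexp gave -0.14 for the DCN member probe and -0.48 for the second probe in Star. In Star, DMD probes A_11_P050776, A_11_P053266 and A_11_P114341 were 1.237, 1.198 and 1.102 with spike-in scaling, and the first 2 were 0.069 and 0.030 unscaled. The cause was not tested. Of 40 alternative bounds of Stylo over Star, 36 moved by more than the spread between arrays. Spike-in signals ran from 132 to 470 between arrays. A Star spot not well above background bounds, and does not measure, its level. The unscaled setting was added after seeing the data.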

Other observations

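Of the 104 probes with the Stylo-only detection pattern, 97 (93.3%) had no gene symbol here, 49 of them with an Ensembl transcript accession. All 104 were tested in the sensitive line's sort: 81 (77.9%) fell and 3 rose in Stylo CSC, with a median difference of -2.03, against 19.8% higher and 34.2% lower among the 19108 probes well above background on all 4 Stylo arrays. With spike-in scaling 7 fell and 20 rose, and with cyclic loess 57 fell and 4 rose. The probes were selected on the same arrays, so this stands as a description.

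Asked instead for the weaker flag, positive and significant on all 4 Stylo arrays and on no Star array, the same rule gave 5 genes and none of the 4: ARSI, a sulfatase, CALCR, the calcitonin receptor, GATM, a creatine synthesis enzyme, IL10, an anti-inflammatory cytokine, and OR6C4, an olfactory receptor. They are listed by that flag alone, and the CALCR probe was well above background on no array. The part of the higher negative controls on Star arrays was not tested.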
